A study of Mus musculus with 12 samples.

Results

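Ligands, receptors and response genes of the fibroblast growth factor (FGF), platelet-derived growth factor (PDGF), vascular endothelial growth factor (VEGF) and epidermal growth factor (EGF) families were examined in choroid plexus (CP) tumors. The CP is the tissue of the brain ventricles whose epithelium secretes cerebrospinal fluid. Members were taken by gene symbol: the numbered Fgf and Fgfr genes, the Pdgf and Vegf ligands with Pgf, the EGF receptor (ERBB) family and its ligands, and the response genes Spry, Spred, Etv1, Etv4, Etv5 and Dusp6. Of 53 such symbols with a probe on the array, 33 had a probe with a detection p-value under 0.05 on at least 3 of the 12 arrays. These 33 are among 12379 genes tested. Fgf8 passed this filter through the P0 tumor arrays alone, so the 33 genes are not a neutral sample of the families.

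Expression was measured on Illumina mouse BeadChips in hindbrain CP of C57BL/6 mice. The tumors came from Math1-cre;Rosa26-NICD1 mice: NICD1, the Notch1 intracellular domain, signals without ligand and is placed at the Rosa26 locus under control of a Cre that follows Math1. Controls were wild-type hindbrain CP. The 4 groups were P0 (birth) and P21 (day 21) of either genotype, each with 3 arrays. An array held RNA pooled over several mice of the genotype, whose number is not stated in the labels, and the p-values reflect spread among these pools, which may be technical in part. In such bulk tissue, fewer cells of a type and less RNA per cell cannot be told apart.

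FGF, PDGF, VEGF and EGF ligands bind receptor tyrosine kinases on the cell surface, which signal through Ras and the ERK kinases to ETS transcription factors such as Etv4 and Etv5. Most secreted FGFs need heparan sulfate chains to bind their receptors. ERK signaling switches on its own inhibitors, the Sprouty and Spred proteins and the phosphatase Dusp6. In the CP, the epithelium lies on a stroma of fenestrated capillaries, pericytes, fibroblasts and macrophages, and ligand and receptor are often made by different layers.

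The tumor difference was itself different at P0 and P21 for 6 of the 33 members. Promoter sequences are shown for the 4 of them whose sequence was taken, Fgf7, Fgf12, Fgf22 and Pgf, because their change with age is the pattern described below. Each sequence is the 250 bases before a transcript start, 5′ to 3′ on the gene's strand, from RefSeq on build GRCm38.p6. The windows are chr2:126034408-126034657 on the plus strand for Fgf7, chr16:28564952-28565201 on the minus strand for the second of 4 listed starts of Fgf12, chr10:79754859-79755108 on the plus strand for Fgf22 and chr12:85177314-85177563 on the minus strand for the first of 2 starts of Pgf. This start of Fgf12 is shown because it holds 2 of the motifs searched. Capitals mark matches on either strand to TGGGAA, the core bound by the Notch partner RBPJ, or to CGGAAG, a core bound by ETS factors.
Fgf7: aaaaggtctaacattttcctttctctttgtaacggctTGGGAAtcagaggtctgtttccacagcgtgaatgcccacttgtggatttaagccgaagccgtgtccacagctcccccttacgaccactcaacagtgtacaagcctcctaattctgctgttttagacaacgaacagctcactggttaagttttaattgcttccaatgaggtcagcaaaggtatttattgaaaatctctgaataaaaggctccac
Fgf12: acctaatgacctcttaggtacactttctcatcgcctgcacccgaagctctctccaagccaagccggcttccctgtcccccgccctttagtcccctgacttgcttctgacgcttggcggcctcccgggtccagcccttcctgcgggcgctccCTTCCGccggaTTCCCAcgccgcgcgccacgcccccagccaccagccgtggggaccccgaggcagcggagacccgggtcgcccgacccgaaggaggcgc
Fgf22: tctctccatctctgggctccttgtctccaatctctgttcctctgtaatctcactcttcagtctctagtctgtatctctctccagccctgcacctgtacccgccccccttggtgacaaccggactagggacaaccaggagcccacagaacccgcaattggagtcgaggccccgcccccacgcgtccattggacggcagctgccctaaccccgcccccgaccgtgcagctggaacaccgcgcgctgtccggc
Pgf: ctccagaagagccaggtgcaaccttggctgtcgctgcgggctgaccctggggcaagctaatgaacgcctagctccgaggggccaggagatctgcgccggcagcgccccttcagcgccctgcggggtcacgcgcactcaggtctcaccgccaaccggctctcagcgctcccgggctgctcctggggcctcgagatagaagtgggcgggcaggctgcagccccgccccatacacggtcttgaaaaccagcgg
The Fgf7 window holds TGGGAA 213 bases before the start. The Fgf12 window holds TGGGAA at 88 and CGGAAG at 99 bases before the start, both on the opposite strand, and these 2 matches do not overlap. The windows of Fgf22 and Pgf hold neither motif. Promoter windows were taken for 23 of the 33 members, 36 in all. Members on a chromosome left out of the member windows had none, and others, Etv4 and Fgfr1 among them, had no window listed. TGGGAA occurred in 8 of these 36 windows (22.2%) and in 21.6% of all 32851 mouse windows of this length. CGGAAG occurred in 19.4% of the member windows and 13.6% of all, and ACGTG, the core of hypoxia response elements, in 11.1% and 16.6%. A match describes letters and is not a binding site.

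Levels below are normalized log2 signals, background-corrected and quantile-normalized over the 12 arrays, and are compared only within a probe. The arrays detected 19043 to 23632 of 45281 probes, and the number of arrays limits the precision. Each age had a BeadChip of its own, and the effects of age and of BeadChip cannot be told apart. Every tumor comparison stayed inside a single BeadChip. Tumors occupied the first 3 positions of both BeadChips, so position and genotype cannot be told apart. Notch1 was higher in tumors by 1.13 (SE 0.25, limma adjusted p = 0.0117) at P0 and by 2.11 (adjusted p = 8.59e-05) at P21. The place of its probe relative to the transgene is not given here. The 6 CP epithelium markers tested were each detected on at least 1 array of every group, with summed signals given below. P21 tumor sample 1 stood apart from the other P21 tumors. Its summed signal of 3 neuron markers was 27000, against 1110 and 1920 in the other P21 tumors and 1980 to 2470 in P21 wild-type CP. Its summed signal of 6 oligodendrocyte lineage markers was 9030, against 4140 and 4370 in the other P21 tumors and 5440 to 5840 in P21 wild-type CP. P21 values are therefore also given without it. P0 wild-type sample 1 had the lowest mean correlation with its group (r = 0.931 over genes), and Fgfr1 and Fgfr3 were not detected in it.

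At P0, 6 of the 33 members (18.2%) passed an adjusted p of 0.05 between tumor and wild-type CP, where 11.3% of all genes passed, 5% higher and 6.29% lower in tumors. Etv4, Fgf22 and Fgf8 rose and Btc, Fgf10 and Vegfc fell, and the count includes Fgf8, which the detection filter required to be higher there. The median log2 difference was 0.072 over the members and -0.0608 over all genes. Levels did not overlap between tumor and wild-type CP for 13 members (39.4%), against 24.8% of all genes. At P21, 8 members (24.2%) passed, where 17.9% of all genes passed, 10.5% higher and 7.43% lower. Fgf7, Pgf, Fgf12, Hbegf and Fgf1 rose and Fgf18, Pdgfb and Btc fell, and the medians were 0.153 over the members and -0.0487 over all genes. Levels did not overlap for 16 members (48.5%) at P21, against 45% of all genes. The difference of the tumor effects at both ages (P21 effect minus P0 effect) passed for 6 members (18.2%), where 4.4% of all genes passed, 3.13% with a larger and 1.27% with a smaller P21 effect. These were Fgf7, Pgf, Fgf12, Fgf1 and Hbegf, with the larger tumor difference at P21, and Fgf22, with the larger at P0. Btc was called in tumors of both ages. No test set the members against other genes.

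**Figure D1:**
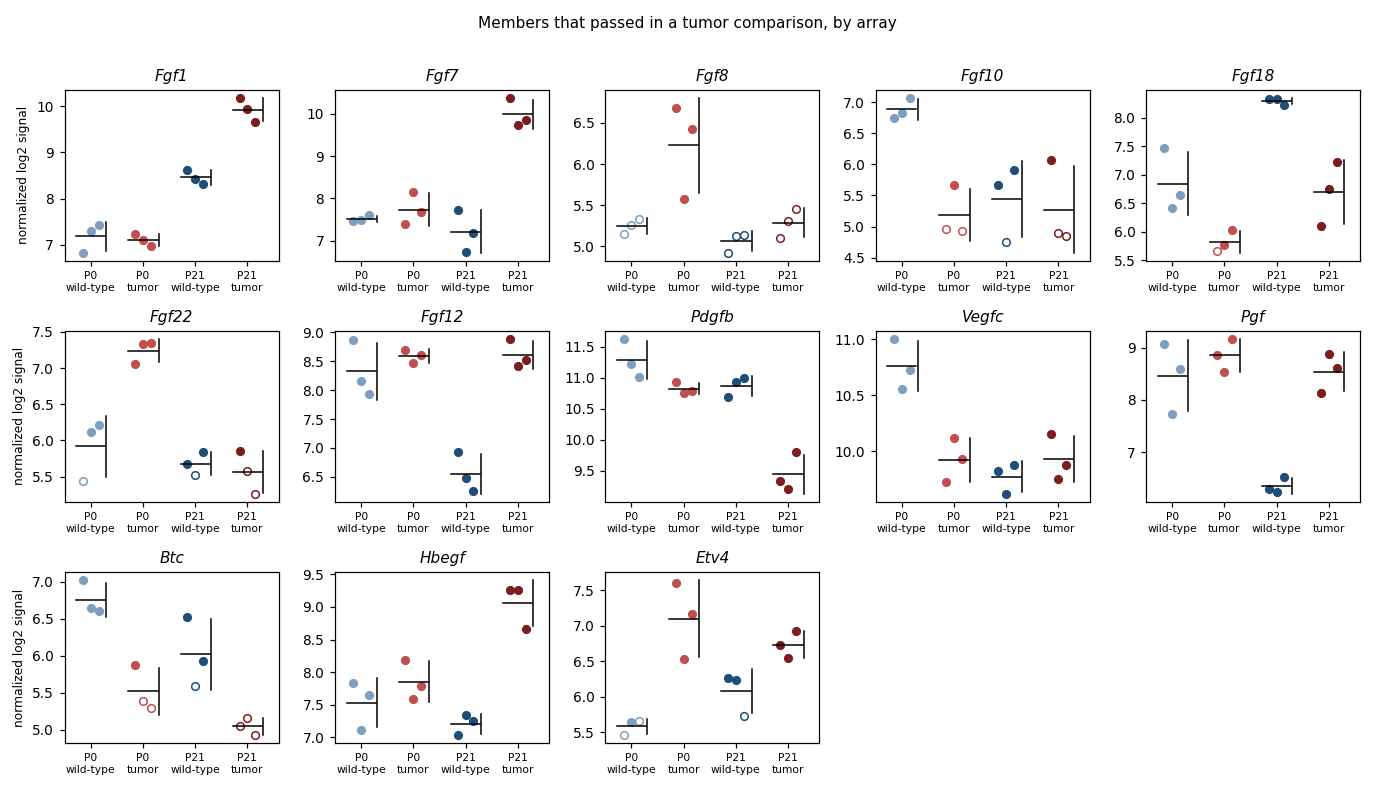
Normalized log2 signal of the 13 members that passed in a tumor comparison, by array, in P0 and P21 wild-type CP and tumors. Each point is an array (open where the probe was not detected), the horizontal line the mean of 3 arrays and the vertical line its SD. Fgf7, Fgf1 and Hbegf were higher in the P21 tumors than in every other group, whereas Fgf12 and Pgf were low in P21 wild-type CP alone.

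Among the secreted FGF ligands, 8 of 18 with a probe were detected. Fgf7, also called keratinocyte growth factor, is a stromal ligand of the epithelial form of FGFR2. Its P21 level was 7.72, 6.72 and 7.19 in wild-type CP and 10.38, 9.74 and 9.86 in tumors. P0 levels were 7.47, 7.48 and 7.60 in wild-type CP and 7.39, 8.14 and 7.68 in tumors. The P21 tumors thus lay above all other arrays, while the P0 groups overlapped. Tumors exceeded wild-type CP by 2.78 (SE 0.28, limma adjusted p = 2.73e-05) at P21, a 6.85-fold difference, and by 0.22 (SE 0.28, adjusted p = 0.686) at P0. The difference between these effects was 2.56 (SE 0.39, adjusted p = 0.00351). Without P21 tumor sample 1, the P21 difference was 2.60 (adjusted p = 9.3e-05).

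Fgf1, acidic FGF, binds all FGF receptors and lacks a classical secretion signal. Its P21 level was 8.63, 8.43 and 8.32 in wild-type CP and 10.17, 9.95 and 9.67 in tumors. P0 levels were 6.82, 7.29 and 7.42 in wild-type CP and 7.23, 7.11 and 6.97 in tumors. Every P21 array exceeded every P0 array, and tumor and wild-type CP were apart at P21 and overlapped at P0. The tumor difference was 1.47 (SE 0.21, limma adjusted p = 0.00037) at P21, or 2.77-fold, and -0.07 (SE 0.21, adjusted p = 0.873) at P0. The effects differed by 1.55 (SE 0.30, adjusted p = 0.0115), and the P21 difference was 1.36 (adjusted p = 0.00157) without P21 tumor sample 1.

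Fgf22 belongs to the same subfamily as Fgf7 and Fgf10 and is known in the mouse brain as an organizer of synapses. At P0 its level was 5.43, 6.11 and 6.21 in wild-type CP and 7.06, 7.33 and 7.34 in tumors. At P21 it was 5.67, 5.53 and 5.84 in wild-type CP and 5.85, 5.58 and 5.26 in tumors. The P0 tumors were the highest of the 12 arrays, and the P21 groups overlapped near background, with 3 of the 6 arrays not detected. The P0 difference was 1.32 (SE 0.24, limma adjusted p = 0.00384), or 2.5-fold, and the P21 effect minus the P0 effect was -1.44 (SE 0.34, adjusted p = 0.0307).

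Fgf8, the ligand by which the isthmic organizer patterns midbrain and hindbrain, was detected in the P0 tumors alone, at 6.68, 5.58 and 6.43. It was not well above background on any wild-type array of either age or in P21 tumors. Its mean P0 tumor level was at least 1.34-fold that of P0 wild-type CP, and the difference of the measured means passed (limma adjusted p = 0.0267). Since the gene was tested only because these arrays detected it, that p describes a difference the filter required. A bound sets the dim arrays at the lowest detected signal of each array where the probe was dimmer, and it does not take in the spread among arrays. The call was lost in 7 of 16 alternatives: no background correction (adjusted p = 0.0799), the normalized values deposited by the authors (0.0619), the 6 P0 arrays fitted alone (0.139), and the leaving out of P0 tumor sample 1 or 3 (0.0962 and 0.105) or of P0 wild-type sample 1 or 3 (0.0662 and 0.0577).

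Fgf10, a mesenchymal ligand of the same FGFR2 form as Fgf7, was at 6.75, 6.83 and 7.07 in P0 wild-type CP and at 4.97, 5.67 and 4.92 in P0 tumors, where 2 of 3 arrays did not detect it. The P0 groups did not overlap, and tumors were lower by -1.69 (SE 0.37, limma adjusted p = 0.0118), a 3.23-fold difference. Without P0 tumor sample 3 the adjusted p was 0.0552. A second Fgf10 probe was also lower in P0 tumors, by -0.82, and did not pass (limma adjusted p = 0.211, over probes). At P21 both groups held arrays below background, and the difference was -0.17 (adjusted p = 0.815).

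Fgf18, a ligand of FGFR3 in skeletal growth, was at 8.33, 8.33 and 8.23 in P21 wild-type CP and at 6.10, 6.76 and 7.23 in P21 tumors. It was lower in tumors by -1.60 (SE 0.31, limma adjusted p = 0.003), or 3.03-fold, and by -1.31 (adjusted p = 0.00876) without P21 tumor sample 1. At P0 the levels were 7.47, 6.42 and 6.65 in wild-type CP and 5.66, 5.76 and 6.04 in tumors. These P0 groups did not overlap either, and the difference of -1.02 missed the threshold (adjusted p = 0.0513). It passed with a detection p-value filter of 0.01 (0.0479), with array weights (0.0351) and without P0 wild-type sample 2 (0.0327). Of the other detected ligands, Fgf15 was not well above background in P0 tumors. Its mean P0 wild-type level was higher by a bound of 1.36-fold. The measured Fgf15 difference of -0.83 did not pass (limma adjusted p = 0.0896), and was -0.44 (adjusted p = 0.207) without P0 wild-type sample 1. Fgf17 differed by -0.24 at P0 (adjusted p = 0.692), and neither passed at P21. Fgf2, Fgf3, Fgf4, Fgf6, Fgf16, Fgf20, Fgf21 and Fgf23 were detected on 0 arrays, Fgf5 on 1 and Fgf9 on 2.

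The intracellular FGFs are not secreted and bind voltage-gated sodium channels rather than FGF receptors. Fgf12 was at 6.93, 6.48 and 6.25 in P21 wild-type CP and at 8.88, 8.42 and 8.52 in P21 tumors. P0 levels were 8.87, 8.16 and 7.94 in wild-type CP and 8.70, 8.46 and 8.60 in tumors. The P21 wild-type arrays were the low ones, while P0 tissue and P21 tumors shared a range. The P21 difference was 2.05 (SE 0.26, limma adjusted p = 0.000169), or 4.15-fold, the P0 difference 0.27 (adjusted p = 0.579), and the effects differed by 1.79 (SE 0.37, adjusted p = 0.0176). Fgf12 is also a neuronal gene, and without P21 tumor sample 1, the sample with high neuron markers, the P21 difference was 1.92 (adjusted p = 0.000684).

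Fgf13, the other intracellular FGF detected, was at 9.55 in P21 tumor sample 1 and at 7.51 and 7.40 in the other P21 tumors, against 6.86, 7.08 and 7.58 in P21 wild-type CP. Its P21 difference was 0.98 (SE 0.45, limma adjusted p = 0.173), and 0.28 (adjusted p = 0.551) without that sample. At P0 the tumors, at 9.01, 9.16 and 8.98, lay above wild-type CP, at 8.49, 8.31 and 7.98, and the difference of 0.79 did not pass (adjusted p = 0.31). Fgf11 and Fgf14 were detected on 0 arrays.

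No FGF receptor passed in a tumor comparison as fitted over the 12 quantile-normalized arrays, though alternatives differed at P21. Fgfr2 was at 14.28, 15.01 and 14.78 in P0 wild-type CP, 14.46, 15.43 and 14.76 in P0 tumors, 13.95, 13.77 and 13.83 in P21 wild-type CP and 14.46, 14.38 and 14.30 in P21 tumors. Its groups overlapped at P0 and not at P21, where tumors were higher by 0.53 (SE 0.26, limma adjusted p = 0.193). The other Fgfr2 probes differed by 0.63 and 0.98 at P0 and by 0.04 and 0.56 at P21, and neither passed. Fgfr3 was at 7.36, 6.83 and 7.24 in P21 wild-type CP and at 8.86, 8.90 and 8.26 in P21 tumors. These groups did not overlap, and the difference of 1.53 (SE 0.62) did not pass (adjusted p = 0.115). Its pooled SE carried the spread at P0, where wild-type sample 1 was at 4.77, not detected, and the other wild-type samples at 8.07 and 7.34. With the 6 P21 arrays fitted alone, Fgfr3 (1.53, adjusted p = 0.00389) and Fgfr2 (0.51, adjusted p = 0.0274) passed. More genes of all kinds passed in that fit, 1599 higher and 1561 lower, against 1302 and 920 over the 12 arrays. With array weights all 3 detected receptors passed, Fgfr3 (1.60, adjusted p = 0.000817), Fgfr2 (0.52, 0.00994) and Fgfr1 (0.79, 0.0276), and Fgfr3 passed also under median scaling (1.82, 0.0465) and with no background correction (1.00, 0.049). Without P21 tumor sample 1, the P21 differences were 1.45 for Fgfr3 (adjusted p = 0.201), 0.49 for Fgfr2 (0.331) and 0.92 for Fgfr1 (0.22).

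Fgfr1 was at 7.72, 8.02 and 7.76 in P21 wild-type CP and at 7.40, 8.73 and 8.76 in P21 tumors, with a difference of 0.46 (limma adjusted p = 0.58). At P0 it was at 5.85 (not detected), 7.30 and 7.50 in wild-type CP and 8.34, 7.07 and 7.46 in tumors, and the groups overlapped at both ages. Fgfr4 was detected on 0 arrays. The 95% interval of the P21 difference was -0.57 to 1.49 for Fgfr1, -0.03 to 1.09 for Fgfr2 and 0.19 to 2.87 for Fgfr3.

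**Figure D2:**
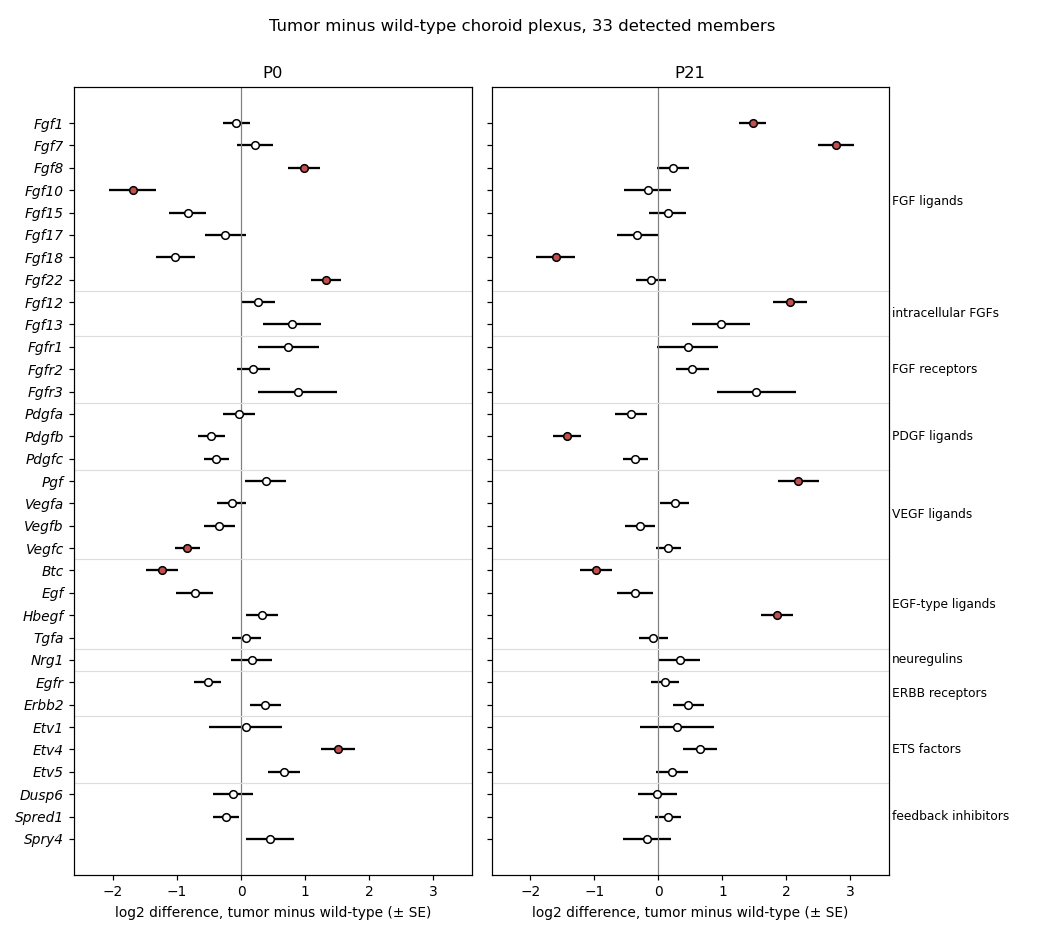
Log2 difference, tumor minus wild-type CP, of the 33 detected members at P0 and P21, grouped by role, with the SE as bars. Filled points passed a limma adjusted p of 0.05. Points of Fgf8, Fgf15 and Tgfa at P0 and of Btc, Fgf8, Fgf15 and Nrg1 at P21 are differences of measured means in which a group was below background. Ligands make up 5 of the 6 filled points at P0, and no receptor or feedback inhibitor is filled at either age in this fit.

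Genes that shape FGF availability, 19 of 21 listed being tested, included some of the largest differences. At P21, 6 rose and 2 fell, and at P0, 2 rose and 2 fell, with medians of 0.171 and -0.0988 beside -0.0487 and -0.0608 over all genes. Sulf2, which trims sulfate groups from heparan sulfate, rose by 3.06 (SE 0.17, limma adjusted p = 3.26e-07) at P21, from a mean of 9.61 ± 0.11 (SD, n = 3) to 12.67 ± 0.09. The heparan sulfate carrier Gpc1 rose at both ages, by 2.93 (SE 0.27, adjusted p = 3.82e-05) at P0 and 2.56 (adjusted p = 4.27e-05) at P21. Ext1, which builds the heparan sulfate chain, also rose at both, by 1.34 (adjusted p = 0.00248) and 2.42 (adjusted p = 1.43e-05). Flrt1, a membrane protein that binds FGF receptors, rose by 2.27 (adjusted p = 0.00058) at P21. Gpc4 (-0.96, adjusted p = 0.0239) and Sdc1 (-0.70, adjusted p = 0.0333), both heparan sulfate carriers, fell at P0. They were also the falls at P21 (Sdc1 -1.17, adjusted p = 0.000979, and Gpc4 -0.89, adjusted p = 0.0225). The P0 call of Sdc1 was lost in 10 of 17 alternatives, with the replicate number as a block among them (adjusted p = 0.0671), and averaging its probes gave -0.13 (adjusted p = 0.847). Its P21 call was lost in 1 of 17, the mean of its probes (-0.81, adjusted p = 0.0942). The P0 call of Gpc4 was lost in 6 of 18 alternatives and its P21 call in 5 of 18. The effects of the ages differed for Sulf2 (2.61, adjusted p = 0.000169) and for the FGF-binding proteins Fgfbp1 (3.07, adjusted p = 0.00467) and Fgfbp3 (1.61, adjusted p = 0.041), the last pair being named after their values were seen. The Fgfbp3 call of this difference was lost in 10 of 23 alternatives. Of the P21 calls in this list, that of Gpc4 was lost without P21 tumor sample 1 (-0.70, adjusted p = 0.0838).

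Of the PDGF ligands, Pdgfb, the endothelial signal that recruits pericytes through Pdgfrb, was the member called. It was at 10.69, 10.92 and 10.99 in P21 wild-type CP and at 9.33, 9.20 and 9.80 in P21 tumors. The P21 tumors were the lowest of the 12 arrays. The P21 difference was -1.42 (SE 0.22, limma adjusted p = 0.000582), or 2.68-fold, and -1.38 (adjusted p = 0.00237) without P21 tumor sample 1. At P0 the levels were 11.62, 11.21 and 11.01 in wild-type CP and 10.92, 10.75 and 10.79 in tumors, without overlap, and the difference of -0.46 did not pass (adjusted p = 0.208).

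Pdgfa, a ligand of Pdgfra, was at 12.08, 12.08 and 11.95 in P21 wild-type CP and 11.36, 11.64 and 11.82 in P21 tumors. These groups did not overlap, and the difference of -0.43 (SE 0.24) did not pass (limma adjusted p = 0.279). At P0 it lay between 11.73 and 12.08 in wild-type CP and between 11.38 and 12.38 in tumors. Pdgfc differed by -0.39 at P0 and -0.36 at P21, and neither passed (adjusted p = 0.25 and 0.254). Pdgfd was detected on 0 arrays.

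The receptor Pdgfra was lower in tumors at both ages, with 12.93, 12.78 and 12.72 in P0 wild-type CP against 11.78, 12.26 and 12.01 in P0 tumors, and 11.63, 11.54 and 11.62 against 10.73, 10.59 and 10.91 at P21. The groups did not overlap at either age. The difference was -0.79 (SE 0.18, limma adjusted p = 0.0143) at P0 and -0.86 (adjusted p = 0.00524) at P21. The P0 call was lost in 4 of 18 alternatives, 1 of them the mean of its probes (-0.41, adjusted p = 0.137). Pdgfrb was at 8.24, 8.17 and 8.80 in P21 wild-type CP and 8.64, 9.10 and 9.90 in P21 tumors, an overlapping difference of 0.81 (adjusted p = 0.0979), and it differed by 0.00 at P0.

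Among the VEGF ligands, Pgf (placental growth factor), a ligand of the receptor Flt1, rose in P21 tumors and Vegfc, a ligand of Flt4 known for lymphatic growth, fell in P0 tumors. Pgf was at 6.30, 6.23 and 6.52 in P21 wild-type CP and at 8.13, 8.87 and 8.61 in P21 tumors. At P0 it was at 9.06, 7.73 and 8.60 in wild-type CP and 8.87, 8.52 and 9.16 in tumors. As for Fgf12, the P21 wild-type arrays were the low ones. The P21 difference was 2.19 (SE 0.32, limma adjusted p = 0.000413), or 4.56-fold, and 2.40 (adjusted p = 0.000448) without P21 tumor sample 1. The effects of the ages differed by 1.80 (SE 0.45, adjusted p = 0.041), a call lost in 14 of 23 alternatives, where the adjusted p ranged from 0.00203 to 0.122 over all 23.

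Vegfc was at 11.00, 10.55 and 10.73 in P0 wild-type CP and at 9.72, 10.12 and 9.93 in P0 tumors. At P21 it was at 9.83, 9.62 and 9.88 in wild-type CP and 10.15, 9.76 and 9.87 in tumors. Only the P0 wild-type arrays were high. The P0 difference was -0.84 (SE 0.19, limma adjusted p = 0.0164), and the call was lost with the 6 P0 arrays fitted alone (adjusted p = 0.103) and without tumor sample 1 (0.0606), tumor sample 3 (0.0545) or wild-type sample 1 (0.0501). The difference between the ages' effects, 0.99, did not pass (adjusted p = 0.0666). It passed in 7 alternatives, with an adjusted p of 0.0134 to 0.0476: no background correction, cyclic loess, median scaling, an offset of 50, the authors' deposited normalized values, array weights and the leaving out of P0 tumor sample 2.

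Vegfa, the main angiogenic ligand and an abundant CP product, was at 12.37, 12.08 and 11.81 in P0 wild-type CP and at 11.60, 12.38 and 11.85 in P0 tumors. At P21 it was at 11.72, 11.77 and 11.90 in wild-type CP and at 12.26, 11.88 and 12.03 in tumors. The groups overlapped at both ages, and the 95% interval of the difference was -0.64 to 0.35 at P0 and -0.24 to 0.76 at P21. Vegfb differed by -0.34 and -0.29, and neither passed. The gene listed as Figf in the rule appears under its current symbol Vegfd and is no member by spelling. Vegfd was at 8.53, 8.16 and 8.30 in P0 wild-type CP and 7.34, 7.78 and 7.58 in P0 tumors, and the difference of -0.76 did not pass (limma adjusted p = 0.0744).

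Of the VEGF receptors and coreceptors, Nrp2 alone passed. Nrp2, a coreceptor for VEGF ligands and semaphorins, was at 6.05, 5.21 and 5.56 in P21 wild-type CP, where 2 arrays did not detect it, and at 7.67, 8.71 and 8.90 in P21 tumors. It rose by 2.82 (SE 0.46, limma adjusted p = 0.000984). At P0 it was at 7.94, 6.47 and 6.67 in wild-type CP and 8.80, 7.50 and 8.60 in tumors, an overlapping difference of 1.27 (adjusted p = 0.101). The endothelial receptors gave no call. Flt1 differed by 0.32 at P0 and 0.34 at P21, Kdr by 0.34 and -0.33 and Nrp1 by 0.32 and -0.15. Flt4 was not well above background on any P0 array and differed by -0.23 at P21. Over the 7 PDGF and VEGF receptors and coreceptors the median was 0.321 at P0 and -0.146 at P21.

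Of the EGF-type ligands, Hbegf, which is made as a membrane precursor and shed to bind Egfr and Erbb4, rose in P21 tumors. It was at 7.04, 7.34 and 7.25 in P21 wild-type CP and at 9.26, 9.27 and 8.66 in P21 tumors. P0 levels were 7.83, 7.11 and 7.65 in wild-type CP and 8.19, 7.58 and 7.79 in tumors. The P21 tumors lay above all other arrays. The P21 difference was 1.86 (SE 0.25, limma adjusted p = 0.000263), or 3.62-fold, and 1.77 (adjusted p = 0.00107) without P21 tumor sample 1. The effects of the ages differed by 1.53 (SE 0.36, adjusted p = 0.0306), and without P21 tumor sample 1 by 1.45 (adjusted p = 0.0543).

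Btc (betacellulin), another ligand of Egfr and Erbb4, was the member that fell at both ages. It was at 7.02, 6.65 and 6.60 in P0 wild-type CP and at 5.88, 5.38 and 5.30 in P0 tumors, where 2 arrays did not detect it. The P0 groups did not overlap, and the difference was -1.24 (SE 0.25, limma adjusted p = 0.00849). At P21 wild-type CP was at 6.53, 5.60 and 5.93, and no tumor array was well above background. The mean P21 wild-type level was at least 1.38-fold higher. The difference of the measured means passed (limma adjusted p = 0.0183), and without P21 tumor sample 1 the adjusted p was 0.0439. The call was lost with an offset of 50 (0.0517), with no background correction (0.0588), without P21 tumor sample 3 (0.0616) and without P21 wild-type sample 1 (0.0871). Egf differed by -0.73 at P0 (adjusted p = 0.127; -1.07 and 0.0277 without P0 tumor sample 3), and it was not detected in P0 tumor samples 1 and 2. Tgfa was not well above background in P0 wild-type CP and was detected on 2 P0 tumor arrays. The bound on its mean was 1.01-fold, and the P0 groups overlapped. The measured P0 difference of 0.08 did not pass (limma adjusted p = 0.864), and the P21 difference was -0.08. Ereg was detected on 0 arrays.

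Neither detected ERBB receptor passed. Egfr was at 9.68, 9.04 and 9.18 in P0 wild-type CP and 8.61, 8.98 and 8.74 in P0 tumors, and at 9.49, 9.38 and 9.48 in P21 wild-type CP and 9.24, 9.75 and 9.68 in P21 tumors. The P0 groups did not overlap, and the P0 difference of -0.52 (SE 0.21) did not pass (limma adjusted p = 0.15). Its 4 probes gave P0 differences from -0.52 to 0.27, none of which passed. Erbb2, the ERBB receptor without a ligand of its own, was at 9.20, 8.70 and 8.86 in P0 wild-type CP and 9.36, 9.19 and 9.36 in P0 tumors. At P21 it was at 7.67, 7.85 and 8.03 in wild-type CP and 7.76, 8.66 and 8.53 in tumors. The difference was 0.38 (adjusted p = 0.37) at P0 and 0.47 (SE 0.24, adjusted p = 0.229) at P21, where tumor sample 1 was the low tumor. Without that sample the P21 difference was 0.75 (adjusted p = 0.0328), and it passed also under median scaling (0.79, 0.0233) and with array weights (0.71, 0.0025). Erbb3 and Erbb4 were detected on 0 arrays. Nrg1, a ligand of both, was detected on 3 of the 12 arrays, 1 each of the P0 groups and the P21 tumors, and passed at neither age.

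Among the ETS factors that respond to FGF signaling, Etv4 rose in P0 tumors. It was at 5.46, 5.64 and 5.65 in P0 wild-type CP, where 2 arrays did not detect it, and at 7.61, 6.53 and 7.17 in P0 tumors. At P21 it was at 6.27, 6.24 and 5.72 in wild-type CP and 6.73, 6.54 and 6.93 in tumors. The groups did not overlap at either age. The difference was 1.52 (SE 0.26, limma adjusted p = 0.00326), or 2.86-fold, at P0 and 0.66 (adjusted p = 0.114) at P21. The P21 difference passed under median scaling (0.89, adjusted p = 0.0331), with array weights (0.56, 0.0244) and with the 6 P21 arrays fitted alone (0.67, 0.0495).

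Etv5 was at 8.21, 8.74 and 9.06 in P0 wild-type CP and 9.31, 9.52 and 9.19 in P0 tumors, and the difference of 0.67 (SE 0.25) did not pass (limma adjusted p = 0.118). At P21 its groups overlapped, with 8.07, 8.27 and 8.55 in wild-type CP and 8.39, 8.25 and 8.90 in tumors. A second Etv5 probe differed by -0.02 at P0. Etv1 was at 11.46 in P21 tumor sample 1 and at 8.68 and 8.74 in the other P21 tumors, below the 9.33, 9.26 and 9.42 of P21 wild-type CP. Its P21 difference was 0.29 (adjusted p = 0.79), and -0.63 (adjusted p = 0.154) without that sample. At P0 Etv1 was at 8.72, 9.09 and 8.69 in wild-type CP and 8.51, 9.46 and 8.75 in tumors. Its other probes were higher in P0 tumors, by 1.38 and 1.08, and neither passed (limma adjusted p = 0.213 and 0.373, over probes).

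The feedback inhibitors among the members gave no call. Dusp6, the phosphatase of ERK, was at 11.85, 11.77 and 11.31 in P0 wild-type CP and 11.26, 12.37 and 10.92 in P0 tumors, and at 11.31, 11.01 and 11.16 in P21 wild-type CP and 11.16, 11.09 and 11.19 in P21 tumors. The groups overlapped at both ages, and the 95% interval of the difference was -0.80 to 0.55 at P0 and -0.69 to 0.66 at P21. The other Dusp6 probes differed by -0.58 and 0.58 at P0 and by -0.14 and -0.22 at P21, and neither passed. Spry4 was at 5.40 (not detected), 6.01 and 6.39 in P0 wild-type CP and 6.17, 6.43 and 6.57 in P0 tumors. At P21 it was detected on 1 of 3 arrays in each group, at 6.24 in wild-type CP and 6.27 in tumors. Spred1 differed by -0.23 at P0 and 0.15 at P21. Spry2 was detected on 0 arrays and Spred2 and Nrg4 on 1, and Spry1, Nrg2 and Areg have no probe listed under these symbols and are not analysed here.

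**Figure D3:**
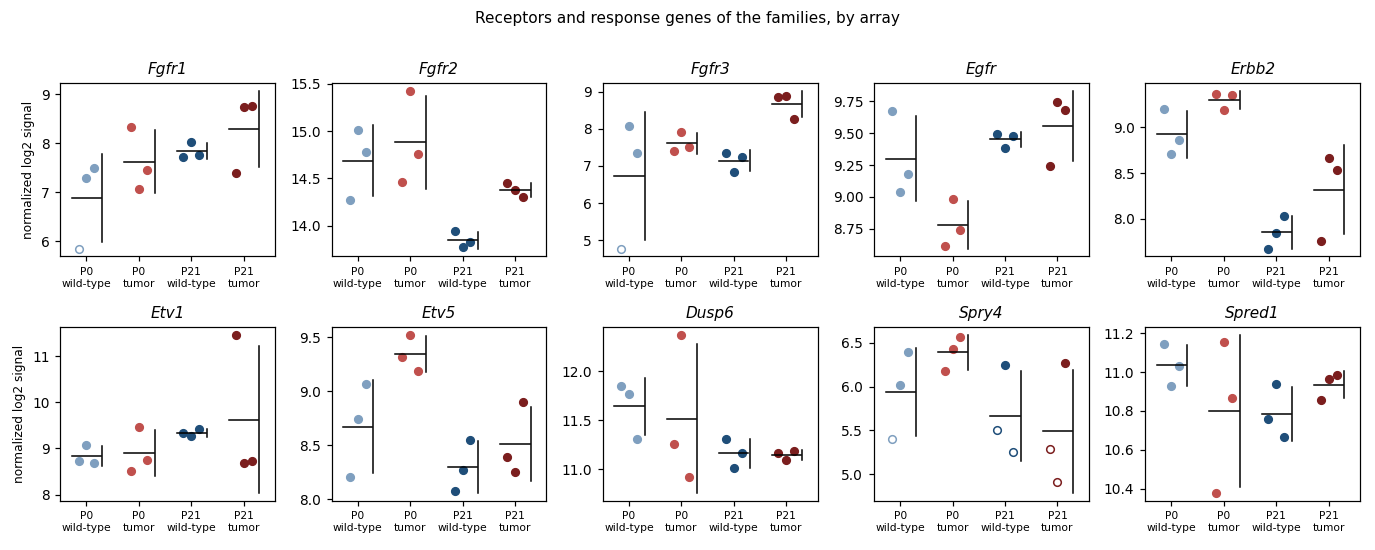
Normalized log2 signal by array of FGF and ERBB receptors, ETS factors and feedback inhibitors, with points, means and SD as in the plot of called members. Levels overlap between tumor and wild-type CP at both ages for Fgfr1, Erbb2, Etv1, Dusp6, Spry4 and Spred1, at P0 for Fgfr2 and Fgfr3 and at P21 for Egfr and Etv5, and Etv1 is high in a single P21 tumor.

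Other response and feedback genes, 15 of 18 listed being tested, gave 3 rises and 1 fall at P0 and 3 rises at P21, with medians of 0.166 and 0.483. Lrig3 rose at both ages, by 0.94 (limma adjusted p = 0.0176) and 1.04 (adjusted p = 0.00595). Il17rd (Sef), an inhibitor of FGF receptor signaling, rose by 0.95 (adjusted p = 0.02) and the cell cycle gene Ccnd1 by 0.87 (adjusted p = 0.0205) at P0. Dusp4, another ERK phosphatase, fell by 1.53 (adjusted p = 0.0121) at P0. With the 6 P0 arrays fitted alone the P0 calls of Lrig3 (adjusted p = 0.068), Il17rd (0.0846) and Ccnd1 (0.0901) were lost, and averaging its probes gave 0.43 for Il17rd (0.192). Leaving out a P0 array ended the calls of Lrig3 (tumor sample 3, 0.0502, and wild-type 3, 0.0535), Il17rd (tumor 1, 0.0617, and wild-type 3, 0.0778), Ccnd1 (tumor 1, 0.0621, and wild-type 1, 0.0645) and Dusp4 (tumor 3, 0.0604). Lrig1, an inhibitor of ERBB receptors, rose by 1.47 (adjusted p = 0.00411) and Socs2 by 0.59 (adjusted p = 0.0398) at P21. The Socs2 call was lost in 7 of 18 alternatives, with the replicate number as a block (adjusted p = 0.0606) and without any 1 of the 6 P21 arrays (0.0774 without tumor sample 1).

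Of the shared signal transducers, 14 of 24 listed were tested, and Gab1 alone passed, with medians of -0.0488 at P0 and -0.0317 at P21. Gab1, a docking protein below many receptor tyrosine kinases, rose by 0.90 (SE 0.23, limma adjusted p = 0.0265) at P0 and 2.02 (adjusted p = 7.61e-05) at P21. The P0 call was lost with the 6 P0 arrays fitted alone (adjusted p = 0.144) and without wild-type sample 1 (0.0823) or 3 (0.0584). Of 5 genes of ligand shedding, Rhbdf1, which helps the protease Adam17 mature and with it the release of EGF-type ligands, rose by 1.52 (SE 0.24, adjusted p = 0.00171) at P0 and 1.23 (adjusted p = 0.00309) at P21. Adam10, Adam12, Adam17 and Rhbdf2 did not pass at either age.

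Levels also changed with age within each genotype, in comparisons that share arrays with those above. In wild-type CP, 8 of 33 members (24.2%) passed between P21 and P0, where 20.3% of all genes passed, 7.37% higher and 13% lower at P21. Levels did not overlap for 21 members (63.6%), against 42.2% of all genes. Fgf18 (1.45, limma adjusted p = 0.00554) and Fgf1 (1.28, adjusted p = 0.00115) were higher at P21. Pgf (-2.11, adjusted p = 0.000638), Fgf12 (-1.77, adjusted p = 0.000601), Fgf10 (-1.44, adjusted p = 0.0162), Erbb2 (-1.07, adjusted p = 0.00825), Vegfc (-0.98, adjusted p = 0.00379) and Fgfr2 (-0.84, adjusted p = 0.036) were lower. The Fgfr2 call was lost in 7 of 18 alternatives, among them the mean of its probes (-0.64, adjusted p = 0.185) and the authors' deposited normalized values (0.0528). That of Fgf10 was lost in 2 of 17. With the replicate number as a block, Btc passed as well (-0.74, adjusted p = 0.0353).

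In tumors, 9 members (27.3%) passed between P21 and P0, where 20.1% of all genes passed, 9.9% higher and 10.2% lower at P21. Levels did not overlap for 16 members (48.5%), against 36.7% of all genes. Fgf1 (2.83, limma adjusted p = 2.31e-06), Fgf7 (2.25, adjusted p = 0.000128), Hbegf (1.21, adjusted p = 0.00492) and Egfr (0.78, adjusted p = 0.023) were higher at P21. Fgf22 (-1.68, adjusted p = 0.000332), Pdgfb (-1.38, adjusted p = 0.000707), Erbb2 (-0.98, adjusted p = 0.013) and Etv5 (-0.83, adjusted p = 0.0372) were lower. The mean of Fgf8 was at least 1.6-fold higher at P0, and the difference of its measured means passed (limma adjusted p = 0.0204). The Egfr call was lost in 6 of 18 alternatives, among them the mean of its probes (0.55, adjusted p = 0.0516). That of Etv5 was lost in 8 of 18 and that of Fgf8 in 6 of 16. Without P21 tumor sample 1, the calls of Etv5 (-0.77, adjusted p = 0.099) and Fgf8 (0.0697) were lost, and Fgf13 (-1.61, adjusted p = 0.000788) and Fgf18 (1.15, adjusted p = 0.0186) passed. Fgf12 and Pgf differed with age in wild-type CP, by -1.77 and -2.11, and by 0.02 and -0.31 in tumors. For Fgf7 and Hbegf the wild-type values were -0.31 and -0.32 and the tumor values 2.25 and 1.21.

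Markers of other cell types moved with genotype beside these members. At P21, 4 of 6 astrocyte markers (Slc1a3, Gfap, Gja1 and Aqp4) rose and Aldh1l1 fell, and their summed linear signal was 26800 to 62600 in tumors, against 5990 to 7280 in controls. Of 5 macrophage markers 4 rose, with sums of 3230 to 5000 and 1430 to 1510. Of 8 pericyte and smooth muscle markers Acta2 and Tagln rose, with sums of 13700 to 27000 and 2990 to 5490. Tagln was below background on all P21 wild-type arrays. Acta2, the brightest of the list at a mean of 14.12 in tumors and 11.09 in controls, made up most of the tumor sums. Of the markers without a call, Pdgfrb (0.81) and Rgs5 (0.41) were higher, and Des (-0.96), Kcnj8 (-0.83), Cspg4 (-0.40) and Myh11 (-0.08) lower. Of 7 fibroblast markers 3 rose and Pdgfra fell, with overlapping sums of 25100 to 31900 and 24300 to 27100. Of 10 endothelial markers only Cldn5 rose, with overlapping sums of 9060 to 13000 and 7320 to 15400. Of 6 CP epithelium markers Aqp1 and Folr1 fell (the Folr1 call was lost in 5 of 18 alternatives, without P21 tumor sample 1 among them, adjusted p = 0.115), with tumor sums of 175000 to 184000 against 232000 to 237000. Of 4 Schwann and melanocyte markers 2 fell, with sums of 420 to 477 and 2070 to 3540. No neuron marker of 3 passed, and of 6 oligodendrocyte lineage markers Pdgfra alone did.

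At P0, Slc1a3 rose and Aldh1l1 fell among the astrocyte markers, with tumor sums of 23600 to 31600 against 17000 to 18800. Aqp1 fell among the CP epithelium markers, with overlapping sums of 146000 to 193000 and 171000 to 241000. Macrophage sums were 4250 to 4880 and 2860 to 3420, with Lyve1 and Mrc1 of 5 markers higher. The Mrc1 call (limma adjusted p = 0.0474) was lost in 9 of 18 alternatives, among them the replicate number as a block (0.0834) and the leaving out of any P0 array (0.0829 to 0.101), and the Lyve1 call in 4 of 17 (0.054 to 0.0708). Endothelial sums were 21800 to 24500 and 22100 to 25300, with no call. Oligodendrocyte lineage sums were 5320 to 6720 and 8220 to 9420. Pdgfra, also on the fibroblast list, was the brightest of these markers, at a mean of 12.02 in tumors and 12.81 in controls. No other marker of the list passed. Sox10 and Mog were below background on all P0 tumor arrays and detected on 1 P0 wild-type array each. Neither differed by more than -0.30 (limma adjusted p = 0.873 and 0.894). Pericyte and smooth muscle, fibroblast, neuron and Schwann and melanocyte sums at P0 were 3870 to 6330 and 3650 to 4150, 20800 to 22600 and 23700 to 26200, 1410 to 1980 and 1930 to 2430, and 390 to 481 and 838 to 912, with 0 of 8, 3 of 7, 0 of 3 and 2 of 4 markers passing. Among the fibroblast markers, Fbln1 (1.97, limma adjusted p = 4.26e-05) and Col1a2 (0.99, 0.0207) rose and Pdgfra (-0.79, 0.0143) fell. The Schwann and melanocyte calls were falls of Pmel and Dct. The Dct call (adjusted p = 0.0401) was lost in 13 of 18 alternatives, with averaged probes (-0.39, 0.446) and the authors' deposited normalized values (-0.50, 0.16) among them. The P0 calls of Aldh1l1 and Aqp1 were lost in 5 of 18 alternatives each, and that of Col1a2 in 4. The part of these cell types in the differences of Fgf7, Fgf1, Hbegf, Pgf, Pdgfb and the other members was not tested.

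**Figure D4:**
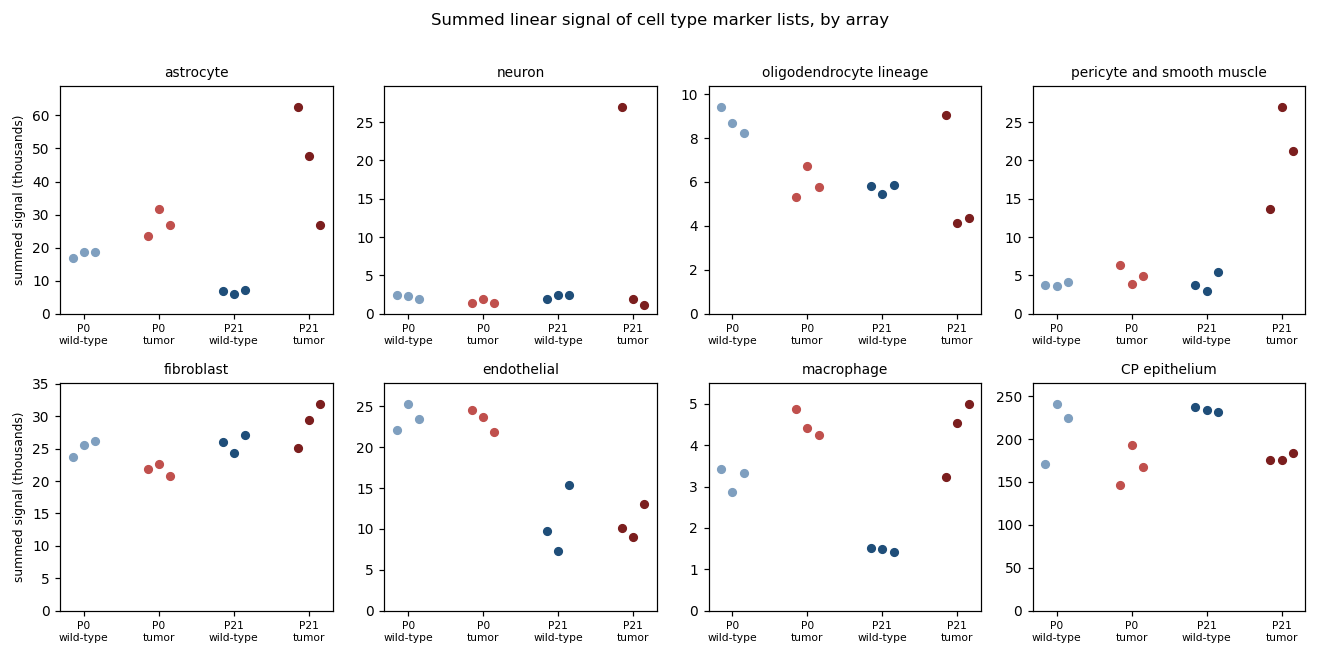
Summed linear signal of 8 cell type marker lists by array in the 4 groups, each point being an array. Astrocyte, macrophage, and pericyte and smooth muscle sums were higher in every P21 tumor than in P21 wild-type CP, the last mostly through Acta2. At P21, endothelial and fibroblast sums overlapped, and the neuron sum was high in P21 tumor sample 1 alone.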

How the data were processed

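The 12 pooled samples were Trizol RNA, per the labels, made into biotin cRNA for Illumina BeadChips. Values started from a deposited table of raw bead intensities (linear, not normalized per the file headers), each with a detection p-value. The authors' deposited normalized intensities, for which no method is stated, served as an alternative. They ranked the probes of each array as the raw table does (Spearman 1), with medians of 153 to 153.1.

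The signal was background-corrected by normexp (limma 3.58.1, R 4.3.3), with negative controls inferred from the detection p-values (936 per array) and an offset of 16, then quantile-normalized and put on the log2 scale, which the deposited values were not on. Gene names came from GEO's platform annotation, updated through RefSeq tables, for the 34885 of 45281 probes with a single symbol. 18 probes had several symbols and 10378 were not listed. A gene was represented by its brightest passing probe, and 10 members had more than 1. A single mean per group was fitted to all 12 arrays (lmFit, eBayes; 8 residual and 4.19 prior degrees of freedom), so a gene has 1 SE for both ages. P-values were adjusted by Benjamini-Hochberg over 12379 genes within each comparison, with a threshold of 0.05. The calculation was tested on simulated arrays. The members, the lists of other pathway genes and the markers were chosen with earlier results of these data known. Members that passed in a tumor comparison or in the difference between ages, all receptors and the main response genes were named, and up to 4 passing genes of each pathway list per tumor comparison.

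Replicate numbers recur in each group. At P0 the deviations of same-numbered tumor and wild-type samples correlated (r = 0.424, 0.431 and 0.104), so the numbers pair the samples by the rule that every pair exceed 0.1, a pairing that comes from the data and not the labels. For number 3 the value is close to 0.0966 for tumor 2 with wild-type 3. At P21 they did not (r = -0.0815, -0.0277 and -0.138). All values come from fits without pairs unless a block is named. Alternatives changed the background correction, normalization, detection filter, probe choice, arrays fitted, array weights and pairing, and left out each array.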

Additional observations from a re-analysis of the deposited data

Results flagged for a closer look

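The tumor difference of 6 members was itself different at P21 and P0 by limma's test of the interaction (adjusted over 12379 genes), on 3 arrays per group. The P21 effect exceeded the P0 effect by 2.56 for Fgf7 (adjusted p = 0.00351), by 1.80 for Pgf (0.041), by 1.79 for Fgf12 (0.0176), by 1.55 for Fgf1 (0.0115) and by 1.53 for Hbegf (0.0306). For Fgf22 it was smaller, at -1.44 (0.0307). Fgf1 and Fgf7 passed in all 23 alternatives run, Fgf12 in 21 of 23, Fgf22 in 15 of 22, Hbegf in 15 of 23 and Pgf in 9 of 23. Without P21 tumor sample 1 the values were 2.38 for Fgf7 (adjusted p = 0.00587), 2.01 for Pgf (0.0261), 1.65 for Fgf12 (0.0309), 1.44 for Fgf1 (0.0216), 1.45 for Hbegf (0.0543) and -1.55 for Fgf22 (0.0227). Since each age lay on its own BeadChip, a difference of effects between ages and between BeadChips cannot be told apart.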

How the results depend on the processing

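Of 682 values of called members recomputed under the alternatives, 606 kept direction and call, 76 kept direction and missed the threshold, and 0 reversed. At P0, 6 members passed, and 1 of the 19 tested passed with probes detected on all 12 arrays, a filter that leaves Btc, Etv4, Fgf10, Fgf22 and Fgf8 untested. Array quality weights (0.219 to 3.1, by the gene-by-gene method because the default did not converge) raised the members passing from 8 to 14 at P21, from 6 to 12 in the difference between ages, from 8 to 13 with age in wild-type CP and from 9 to 16 with age in tumors. Leaving out each replicate gave 4 to 7 members at P0, 7 to 9 at P21, 2 to 7 in the difference between ages, 6 to 9 with age in wild-type CP and 6 to 9 with age in tumors. The lowest counts of the difference between ages came without P21 wild-type sample 2 or 3 (2 each) and without P0 tumor 3, P21 tumor 2 or P21 wild-type 1 (3 each). The replicate block gave 6, 8 and 6 members in the tumor comparisons and their difference, changed no member's call there and no other member call than that of Btc named above. Median scaling gave 8 higher and 3 lower members at P21, against 5 and 3, and it shifted the median of all genes in the difference between ages to 0.12. With age in tumors, cyclic loess and median scaling gave 5 higher and 4 lower, against 4 and 5. Over all genes, 1398 passed at P0, 565 with the 6 P0 arrays alone, 764 without P0 tumor 3 and 2909 with weights. At P21 the counts were 2222, 1476 without P21 wild-type 2 and 4874 with weights, and in the difference between ages 545, 347 with probes detected on all arrays, 298 to 742 leaving out a replicate and 2041 with weights. With age in wild-type CP 2516 passed, 1652 to 1671 without each P21 wild-type sample and 4141 with weights, and with age in tumors 2493 and 5043 with weights. Of all genes passing, 58.6% were higher in tumors at P21 and 73.5% under median scaling, and with age in tumors 49.1% and 62.9% were higher at P21. Signals near background limit Fgf8, Fgf10, Fgf22, Btc and Etv4, whose differences shrank without background correction. The difference between ages of Pgf, detected on all 12 arrays, also shrank there, from 1.80 to 0.99 (limma adjusted p = 0.122). Over the alternatives the P21 differences of Fgf12, Pgf and Hbegf were as low as 1.23, 1.27 and 1.28, and all passed.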
